A study of Mus musculus with 33 samples.

Results

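The synaptic vesicle and release machinery was followed here through 45 genes, chosen by name as the proteins that dock, prime, fuse, refill and retrieve synaptic vesicles. They were chosen with earlier results of these data known. All 45 were found among the 38355 genes of the count files and among the 40678 loci of the FPKM files, and all 45 had enough reads to be tested. RNA came from the CA1 region of the mouse hippocampus, and the samples fell into 5 groups in 2 cohorts. The aged cohort was 8 to 10 months old: 6 samples of the APP/PS1-21 line in a C57B/6 background given JQ1 at 50 mg/kg by intraperitoneal injection for 10 days (APP JQ1), 6 of the same line given vehicle with 10% DMSO for 10 days (APP vehicle), and 4 wild-type samples given vehicle for 10 days (aged WT vehicle). The strain label of the aged WT samples names the APP line, while their titles name them WT. The young cohort was 3 months old and wild type (C57B/6JRj): 8 samples given JQ1 at 50 mg/kg and 8 given vehicle with 10% DMSO, each for 13 days. JQ1 is a small-molecule inhibitor of the BET bromodomain proteins, which read acetylated histones. In the study's description of the line, the neuronal Thy1 promoter drives the mutant APP transgene, and the study's methods name females of this line for its behavioural work and males for the purchased wild-type mice. By the same methods, the animals used for RNA sequencing were killed after the probe test of the water maze, a spatial memory task. The labels do not give the sex of the sequenced samples.

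At a nerve terminal, vesicles are filled with transmitter, held near the active zone, and primed for fusion when SNARE proteins on vesicle and plasma membrane zip together. Synaptotagmins sense the calcium that enters with an action potential, complexins clamp and promote the assembled SNARE complex, and the ATPase NSF takes spent complexes apart. The vesicle membrane is then recovered by dynamin and its partners. In CA1 these transcripts come mainly from local pyramidal cells and interneurons, since the axons that arrive there have their cell bodies elsewhere.

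The promoters of 3 genes are shown because the results below turn on them: Syt3 and Stxbp5 had the smallest unadjusted p for JQ1 against vehicle in APP mice, and Cplx1 the smallest for JQ1-treated APP mice against aged WT. They are RefSeq sequences (GRCm38.p6) from 250 to 51 bases before the annotated start, written 5′ to 3′ on the strand of the gene. Capitals mark CG dinucleotides, the bases that can be methylated.
Cplx1, chr5:108550078-108550277, minus strand: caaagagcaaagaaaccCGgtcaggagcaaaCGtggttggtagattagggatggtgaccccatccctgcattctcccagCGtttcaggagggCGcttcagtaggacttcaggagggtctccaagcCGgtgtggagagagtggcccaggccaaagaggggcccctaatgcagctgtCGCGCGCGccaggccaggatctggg
Syt3, chr7:44383876-44384075, plus strand: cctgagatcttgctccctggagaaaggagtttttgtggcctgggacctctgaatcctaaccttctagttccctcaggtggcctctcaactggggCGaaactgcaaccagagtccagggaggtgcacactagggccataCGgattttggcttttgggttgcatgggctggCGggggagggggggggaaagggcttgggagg
Stxbp5, chr10:9901091-9901290, minus strand: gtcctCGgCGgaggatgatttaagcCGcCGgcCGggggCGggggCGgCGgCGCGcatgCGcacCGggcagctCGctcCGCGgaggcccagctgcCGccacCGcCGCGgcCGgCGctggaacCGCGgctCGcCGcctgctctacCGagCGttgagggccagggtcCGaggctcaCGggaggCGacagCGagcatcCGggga
The Stxbp5 window held 32 CG dinucleotides, the Cplx1 window 9 and the Syt3 window 3. Of the 45 members, 39 had a promoter in the table, with a median of 8 CG dinucleotides in the same window against 4 over the first promoters of all 27025 genes. The letters TATAAA, read on both strands, were in 1 member window (Rab3b), or 2.56%, and in 9.48% of all. The window stops 51 bases before the start, so a TATA motif nearer the start could not be seen. These shares therefore do not tell whether the members have a TATA box. The median GC content of the windows was 58% in the members and 51.5% in all. The cyclic AMP response element TGACGTCA was in 1 (Syn1), or 2.56%, and in 0.862% of all. The letters TTCAGCACC, the first part of the element bound by the repressor REST, were also in 1 (Syn1), or 2.56%, and in 0.241% of all. No motif contains another, and a match describes letters only.

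In the young vehicle-treated mice, transcript levels of the members per unit length spanned from Snap25 at 1061 ± 80.4 FPKM (SD, n = 8) to Slc17a8 at 0.868 ± 0.129 FPKM. Snap25 encodes the plasma-membrane SNARE that is cut by several botulinum toxins. Syp, the abundant vesicle protein synaptophysin, followed at 614 ± 51.2 FPKM, and Vamp2, the main vesicle SNARE, at 446 ± 21.8 FPKM. Snap25 ranged from 951 to 1164 FPKM and Syp from 555 to 705, so every sample of Snap25 lay above every sample of Syp, and every Syp value above the highest Vamp2 value of 481. At the low end, Syn3 stood at 4.95 ± 0.529 FPKM and Cplx3 at 4.84 ± 1.41, and their ranges, 4.27 to 5.85 and 3.77 to 8.17, overlapped. Syn3 is a synapsin, Cplx3 the complexin of ribbon synapses and of some cortical cells, and Slc17a8 the vesicular glutamate transporter VGLUT3 found in scattered neurons. Slc17a8 ranged from 0.724 to 1.14 FPKM, below every value of Cplx3.

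**Figure D1:**
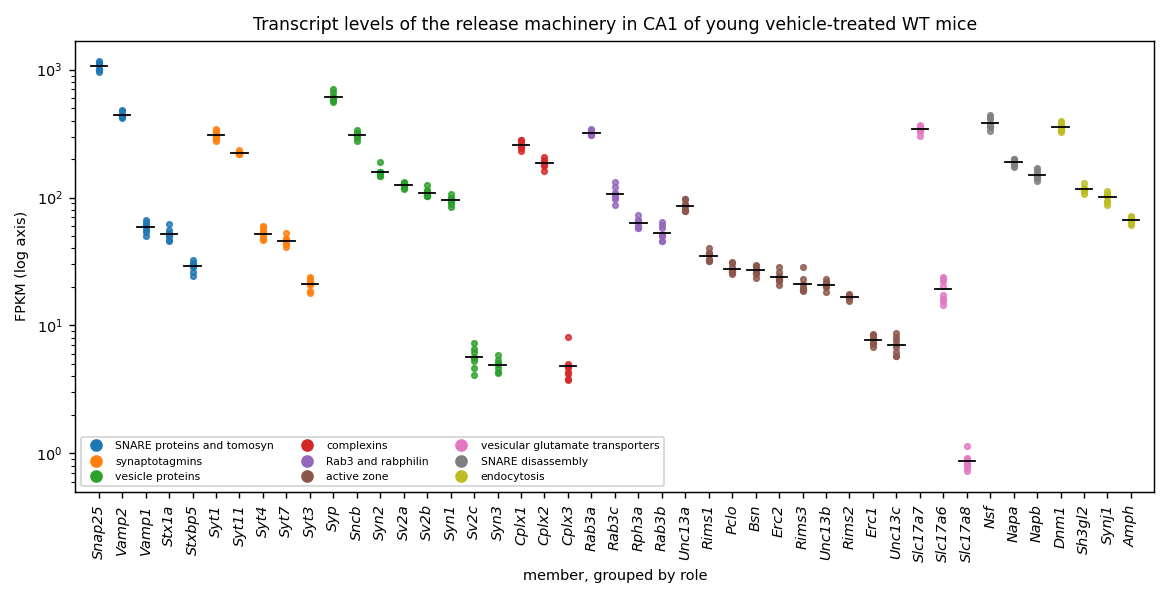
Levels of the 45 members in the 8 young vehicle-treated WT samples, in FPKM on a log axis, grouped and coloured by role; each point is 1 sample and each bar the mean. Snap25 leads at a mean of 1061 FPKM and Slc17a8 is lowest at 0.868 FPKM.

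Of the 45 members, 20 had a mean over 100 FPKM, 19 lay from 10 to 100 FPKM and 6 under 10 FPKM, whereas 2.79% of all loci above 0 exceeded 100 FPKM. In the order of the 45 means there are 44 neighbouring pairs, and in 36 of them the ranges of the 8 samples overlapped. The order by length-scaled counts in the aged WT samples was similar (Spearman's rho of 0.949 over the 45 genes, a description across genes that share their libraries). Within roles, the fast calcium sensor Syt1 (308 ± 22.2 FPKM) and the calcium-insensitive Syt11 (224 ± 4.87 FPKM) were the highest synaptotagmins, and Syt3, a sensor with high calcium affinity, was the lowest at 21.2 ± 2.13 FPKM. Among active-zone genes the priming factor Unc13a led at 86.6 ± 7.65 FPKM, ahead of the scaffold Rims1 at 34.99 ± 3.06 FPKM. Slc17a7 (VGLUT1, the glutamate transporter of cortical and hippocampal pyramidal cells) took 94.5% ± 1.21 of the 3 glutamate transporters per length, and Slc17a6 (VGLUT2) 5.31% ± 1.20.

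Before the comparisons, the aged libraries were checked against their labels. Counted reads on genes ranged from 14605459 to 25339482 per aged library. Slc17a8, the lowest member, had 52 to 154 reads per library, and Snap25, the highest, 32162 to 58949. The library labelled APP JQ1 replicate 4 went against its label. It had 1780 CPM (read counts scaled to library size) of App and 819 of Thy1, while the other 11 APP libraries had at least 2055 and 1591 CPM, and the 4 aged WT libraries had at most 2018 and 1085 CPM. Gfap, the astrocyte filament gene, was at 322 CPM in it and at 1253 CPM or more in the other APP libraries. Values without this library are therefore given beside the results that include it. Among the aged WT libraries, replicate 1 had 123 CPM of 3 CA3 markers summed, against 42.0 to 47.0 in the other 3, and replicate 4 had 3155 CPM of 4 choroid plexus markers, against 34.9 to 43.9. No labels say whether samples came from separate animals, so p-values measure the spread between these samples.

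In bulk tissue, fewer cells of a type and less RNA per cell cannot be told apart. The summed members had 17540 to 20650 CPM in APP JQ1, 18079.5 to 21929 in APP vehicle and 20805 to 23509 in aged WT. The members' sum thus lay below every aged WT library in APP JQ1 and overlapped with aged WT in APP vehicle. The 5 neuronal markers summed had 5884 to 7044, 6378 to 7180 and 7184 to 7693 CPM in the same order. Here every APP library lay below every aged WT library. The highest APP vehicle library, at 7180.3 CPM, was almost level with the lowest aged WT library, at 7183.5 CPM. Of the 5 neuronal markers, 0 passed an adjusted p under 0.05 in edgeR in any aged comparison. Against aged WT, 1 of 5 astrocyte and 2 of 5 microglial markers were called higher in APP vehicle, where 2.57% of all genes were called. In APP JQ1 against aged WT, 3 of 5 astrocyte and 2 of 5 microglial markers were called higher. There 1 of 6 interneuron markers was called lower, and 2.06% of all genes were called. The 5 astrocyte markers summed had 2699 to 5725 CPM in APP JQ1 without replicate 4, 2243 to 6329 in APP vehicle and 1230 to 1319.5 in aged WT, and replicate 4 had 1461. Gfap, 1 of these 5, made up a large part of the sum in the APP libraries. It had 1604 to 4085, 1253 to 5168 and 252 to 325 CPM in the same order. The 5 microglial markers summed had 334 to 555 CPM, 353 to 492 and 198 to 229 in the same order, and replicate 4 had 209. The 6 interneuron markers summed had 694 to 845 CPM in APP JQ1 without replicate 4, 920 in replicate 4, 714 to 935 in APP vehicle and 888 to 1004 in aged WT. The 6 CA1 pyramidal markers summed had 890 to 1190 CPM in APP JQ1 without replicate 4 and 1262 in replicate 4. They had 1106 to 1310 CPM in APP vehicle and 1136 to 1464 in aged WT, and these ranges overlapped. The 5 dentate granule markers had 51.8 to 211 CPM over all aged libraries. No marker of these lists was at 0 in every aged library. The part of cell makeup in the members' differences was not tested.

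The first question was whether JQ1 altered release genes in APP mice. No member passed the threshold of an adjusted p under 0.05 (edgeR quasi-likelihood test with Benjamini-Hochberg adjustment over 16962 genes), where 1.08% of all genes did. At an unadjusted p under 0.05, 1 of 45 members was higher and 6 were lower, against 8.42% and 9.19% of all genes; without replicate 4 these were again 1 and 6, against 6.8% and 6.76%. DESeq2 also called 0 members, where 2.7% of all genes were called, as did the edgeR fit without replicate 4, where 0.431% were. The DESeq2 shares here and below are over 27729 genes, or 27497 without replicate 4. The edgeR filter kept fewer, so the shares of the 2 methods rest on unlike sets of genes. In 0 of 45 members did the 6 APP JQ1 libraries lie wholly apart from the 6 APP vehicle libraries, against 1.95% of all genes, nor without replicate 4, against 2.15%. The median log2 fold change of the members was -0.07, against -0.001 for all genes, and 26 of 45 were below 0, against 50.2% of all genes. Without replicate 4 the median was -0.05 and 29 were below 0. The standard errors ran from 0.07 to 0.33 on the log2 scale, which limits how small a difference could be seen.

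**Figure D2:**
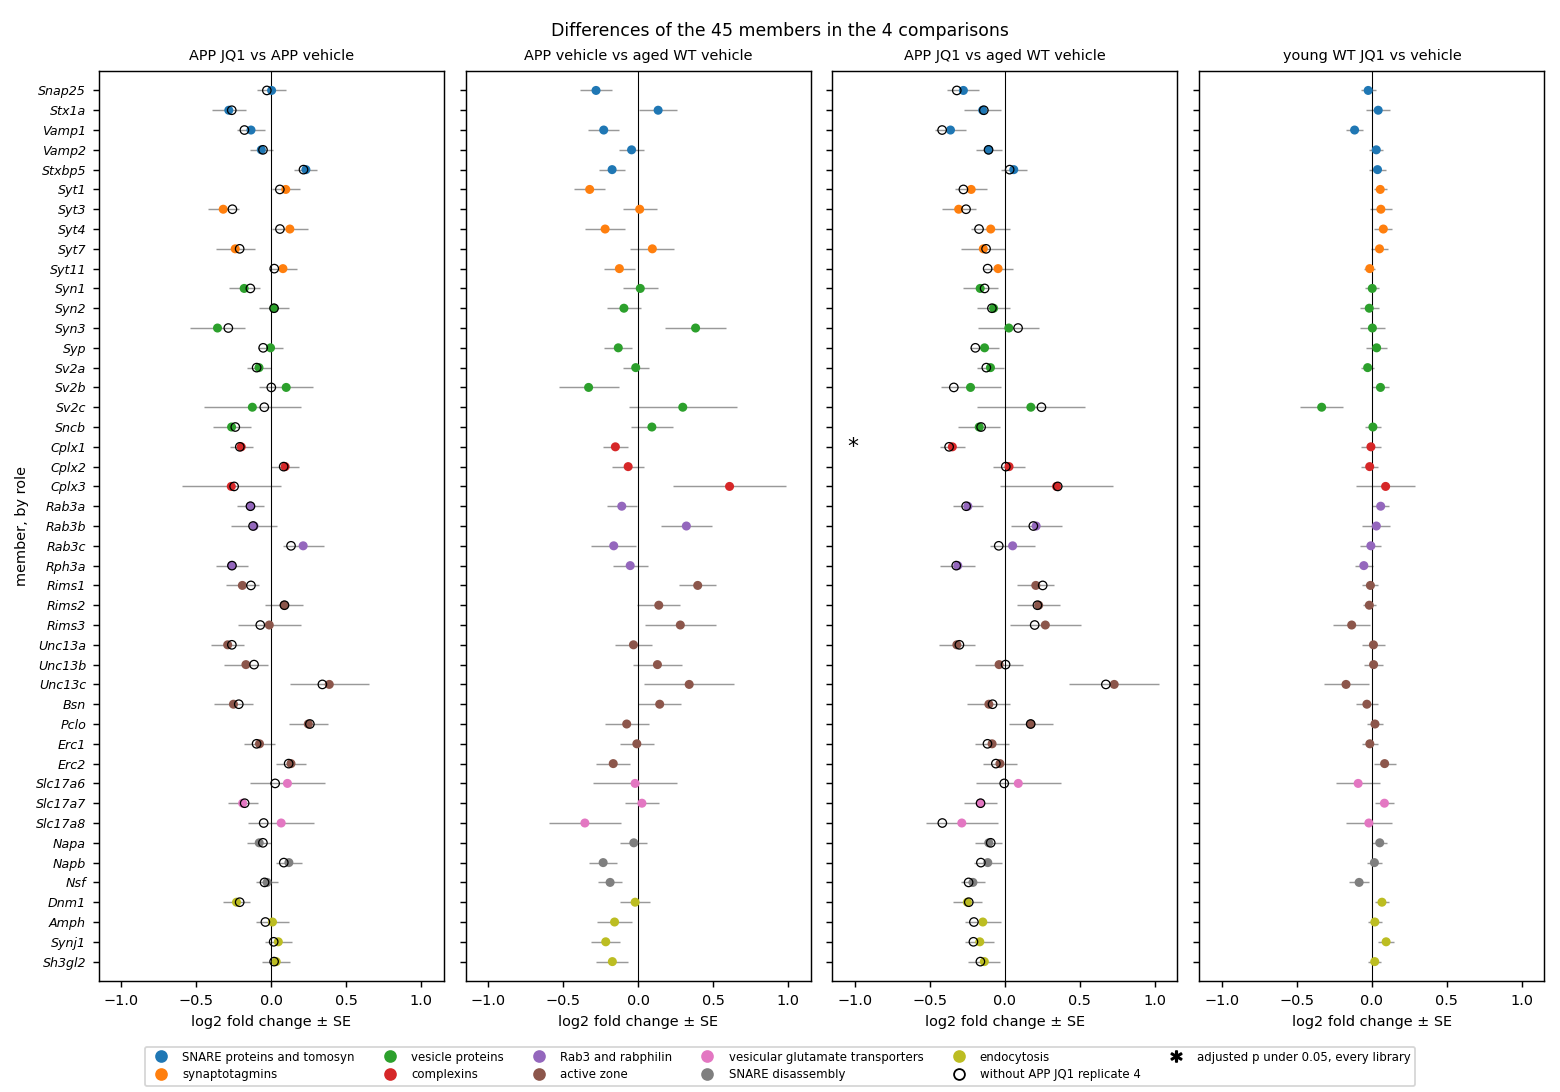
Log2 fold changes with standard errors for the 45 members in the 4 comparisons, coloured by role; the aged panels are from edgeR and the young panel from limma on log2(FPKM + 0.1). Open circles show the fit without the library labelled APP JQ1 replicate 4, and the star marks Cplx1, the 1 member with an adjusted p under 0.05 in the fit of every library.

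Syt3 had the smallest unadjusted p in this comparison. Its CPM ran from 51.8 over a median of 62.0 to 79.6 in the 6 APP JQ1 libraries and from 66.4 over 83.3 to 92.1 in the 6 APP vehicle libraries. The JQ1 libraries were mostly lower, but the ranges overlapped. The log2 fold change was -0.32 ± 0.10 (SE) with an edgeR adjusted p of 0.121, and the exact two-sided permutation test gave p = 0.0195. Without replicate 4, the lowest of the 6, the value was -0.26 ± 0.10 with an edgeR adjusted p of 0.247.

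Stxbp5 encodes tomosyn, which occupies SNARE partners and so holds back priming. Its CPM ran from 130 over 153 to 161 with JQ1 and from 109 over 127 to 149 with vehicle. Most JQ1 libraries were high, and the ranges overlapped. The log2 fold change was 0.23 ± 0.08 (SE) with an edgeR adjusted p of 0.132 (exact permutation p = 0.0216). Without replicate 4 it was 0.22 ± 0.08, with an edgeR adjusted p of 0.261.

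Unc13a (Munc13-1, which opens syntaxin for SNARE assembly) ran from 341 over 370 to 457 CPM with JQ1 and from 405 over 445 to 599 CPM with vehicle. Cplx1, the complexin of fast synapses, ran from 564 over 609 to 653 CPM with JQ1 and from 573 over 738 to 771 CPM with vehicle. Dnm1, the neuronal dynamin that pinches vesicles off the membrane, ran from 1107 over 1238 to 1627 CPM with JQ1 and from 1319 over 1535 to 1641 CPM with vehicle. In these 3 genes the JQ1 libraries lay low and the groups overlapped, and the log2 fold changes were -0.29 ± 0.11 for Unc13a, -0.20 ± 0.08 for Cplx1 and -0.23 ± 0.09 for Dnm1 (SE), with edgeR adjusted p of 0.176, 0.186 and 0.188. The exact permutation p was 0.026 for Unc13a, 0.0411 for Cplx1 and 0.0346 for Dnm1. Without replicate 4 the log2 fold changes were -0.26, -0.21 and -0.21, and the exact permutation p for Dnm1 was 0.0628.

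By role, the SNARE genes and tomosyn had log2 fold changes from -0.28 to 0.23 with a median of -0.07, the synaptotagmins from -0.32 to 0.12 with 3 of 5 above 0, and the vesicle proteins from -0.36 to 0.10 with 6 of 8 below 0. Complexins ran from -0.27 to 0.09, Rab3 genes and rabphilin from -0.26 to 0.21 with 3 of 4 below 0, and active-zone genes from -0.29 to 0.39 with 6 of 10 below 0. The glutamate transporters ran from -0.19 to 0.11, the SNARE disassembly genes Napa, Napb and Nsf from -0.08 to 0.12, and the endocytosis genes from -0.23 to 0.05. The widest values in either direction belonged to Syn3 at -0.36 ± 0.18 (SE) and to Unc13c, Munc13-3, at 0.39 ± 0.26. Both were among the lower members in CPM, with edgeR adjusted p of 0.319 for Syn3 and 0.47 for Unc13c. The medians of the roles without replicate 4 ran from -0.21 in the complexins to 0.02 in the synaptotagmins, and Syn3 at -0.29 (edgeR adjusted p of 0.531) and Unc13c at 0.34 (0.646) were again the widest. With or without that library, no role had all its members on 1 side.

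**Figure D3:**
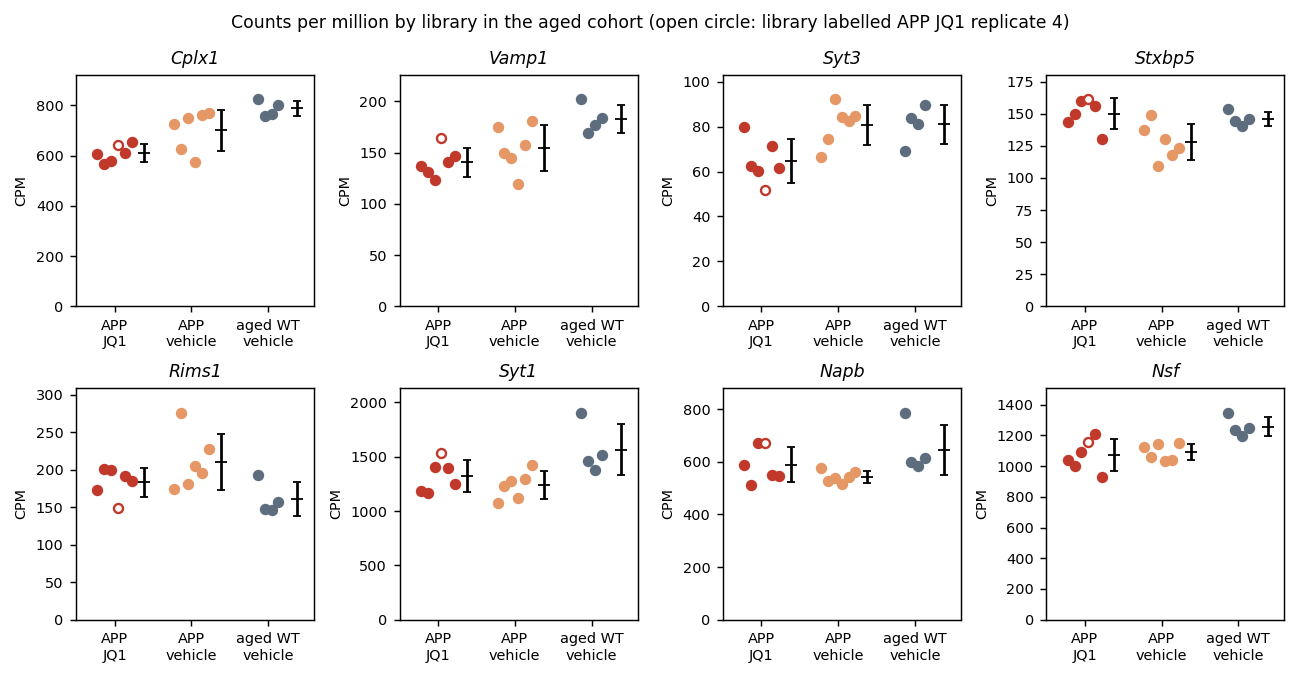
CPM by library in the aged cohort for Cplx1, Vamp1, Syt3, Stxbp5, Rims1, Syt1, Napb and Nsf; bars give the mean and SD of each group, with 6 APP JQ1, 6 APP vehicle and 4 aged WT vehicle libraries. The open circle is the library labelled APP JQ1 replicate 4, and every APP JQ1 point of Cplx1 and Vamp1 sits below every aged WT point.

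The JQ1 differences in APP mice went along with the base composition of the genes. GC content was that of the longest annotated transcript of each gene. Of the 21 members whose exons had a GC content of 50% or more, 18 were lower with JQ1, with a median log2 fold change of -0.19, while of the 24 members under 50%, 8 were lower, with a median of 0.07. Syt3, at 59.2% GC, and Stxbp5, at 42.2%, lay toward opposite ends. The same order held over the 16770 tested genes with a GC value, where 74.2% of the GC-rich genes and 27.2% of the others were lower. Across the 45 members Pearson's r between GC content and log2 fold change was -0.66 and Spearman's rho -0.69, and across all genes -0.38 and -0.57; these are descriptions over genes of the same libraries. Without replicate 4 the members' r was -0.64, with 19 of 21 and 10 of 24 lower. Offsets were then entered in the fit as smooth curves on GC content and length, estimated in each library from these same counts. They remove such a trend over all genes by construction, and r over all genes was then 0.003. With the offsets r over the members was 0.23. Across the 45 log2 fold changes, 29 lay nearer 0 and 16 further from it, and 14 changed sign. Syt3 was at -0.08, Stxbp5 at 0.002, Unc13a at -0.17, Cplx1 at -0.05 and Dnm1 at -0.001, all nearer 0. Others moved away: Snap25 from 0.003 to -0.24, Unc13b from -0.17 to -0.38, Syn3 from -0.36 to -0.48 and Cplx2 from 0.09 to 0.22. With the offsets 0 members were called, where 0.254% of all genes were. The part that base composition of the libraries plays in these differences was not tested. In APP vehicle against aged WT the order was the opposite, with a members' r of 0.30 and rho of 0.45, and 0.16 and 0.36 across all genes. In APP JQ1 against aged WT the members' r was -0.24, or -0.14 without replicate 4, and in the young cohort 0.11.

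**Figure D4:**
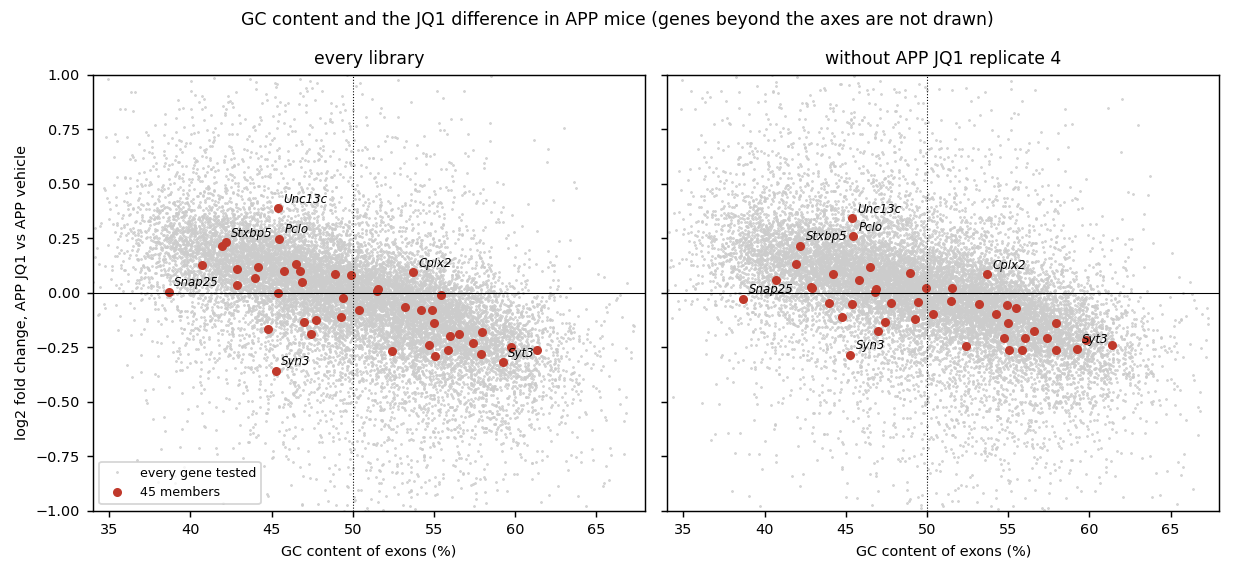
GC content of exons against the log2 fold change of APP JQ1 over APP vehicle for the 45 members (red) and every gene tested (grey). GC content is that of the longest transcript of each gene. Every library is used on the left, and the library labelled APP JQ1 replicate 4 is left out on the right. Members at or above the dotted line at 50% GC lie mostly below 0, with a median of -0.19 on the left, and the others scatter around a median of 0.07.

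Shares within paralog families showed 1 family whose ranges did not overlap between APP JQ1 and APP vehicle among the 11 examined, without replicate 4 as well. No share over other gene families was computed to set beside this count, and Bsn and Pclo were picked after their values were seen. Bsn (bassoon) and Pclo (piccolo) encode the paired giant scaffolds of the active zone. Per exon length, Bsn took 61.65 to 66.93% of the pair in the 6 APP JQ1 libraries and 67.41 to 74.88% in the 6 APP vehicle libraries. It took 67.9 to 68.7% in the 4 aged WT libraries, also above every APP JQ1 library. Without replicate 4, which was the lowest, the APP JQ1 range was 62.5 to 66.9%. Neither gene passed the test alone: Bsn had a log2 fold change of -0.25 ± 0.13 (SE) and Pclo of 0.25 ± 0.13, with edgeR adjusted p of 0.322 and 0.337, and without replicate 4 of -0.22 and 0.26, with 0.512 and 0.439. The exons of Bsn held 59.8% GC and those of Pclo 45.4%, on either side of the 50% split above. With GC and length offsets the log2 fold changes were -0.02 for Bsn and 0.07 for Pclo, with edgeR adjusted p of 0.966 and 0.804. The shares were computed without these offsets. In the young mice Bsn took 41.8 to 54.3% with JQ1 and 43.2 to 53.4% with vehicle, on the scale of the FPKM files, which were made by another counting method. Against aged WT, Rab3 was the family apart in APP vehicle, where Rab3b took 4.29 to 6.32% against 3.49 to 4.155%. In APP JQ1 against aged WT, Unc13 stood apart beside Bsn and Pclo, with Unc13a at 79.6 to 84.9% against 86.3 to 88.9%, and without replicate 4 the Vamp pair did too. In the young mice 0 of 11 families stood apart.

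**Figure D5:**
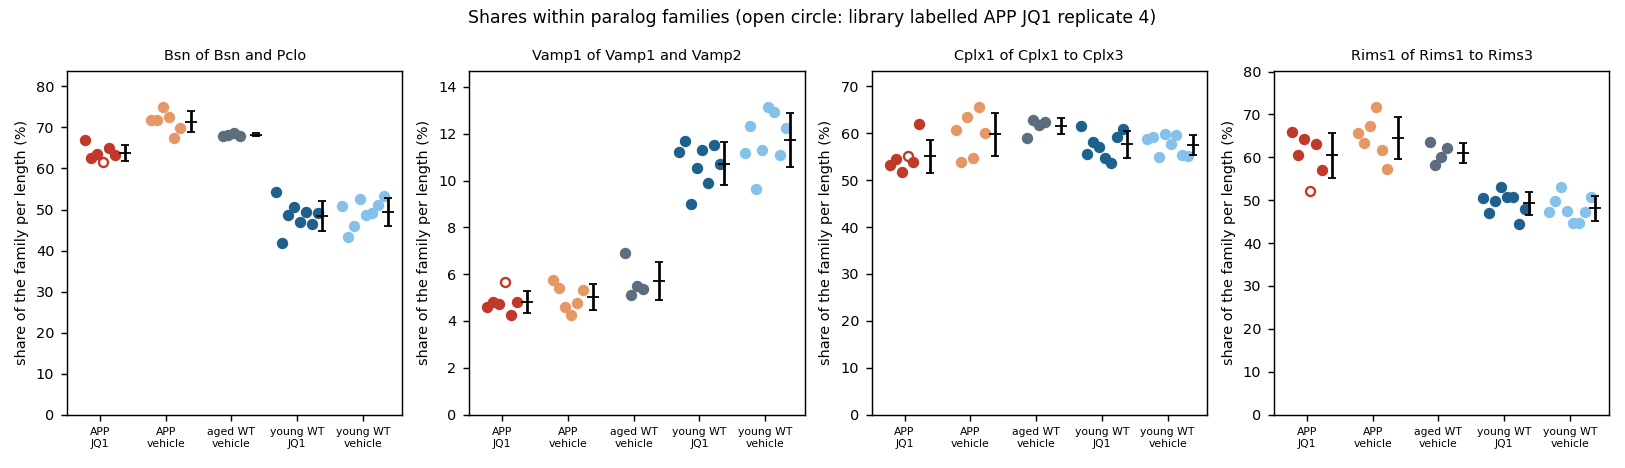
Share of Bsn, Vamp1, Cplx1 and Rims1 in their families, from length-scaled values, by library in the 5 groups, with mean and SD bars; the open circle is the library labelled APP JQ1 replicate 4. Aged and young shares come from different counting methods and cannot be set against each other; Bsn in APP JQ1 (61.65 to 66.93%) lies below APP vehicle (67.41 to 74.88%).

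The next question was how release genes stood in APP mice without the drug. In APP vehicle against aged WT vehicle, 0 of 45 members passed the adjusted threshold in edgeR, where 2.57% of all genes did, 0 in DESeq2, where 2.86% did, and 0 in edgeR without APP JQ1 replicate 4, where 3.55% did. At an unadjusted p under 0.05, 1 member was higher and 6 were lower, against 9.42% and 5.01% of all genes; without aged WT replicate 1, 1 member was higher and 1 lower, against 6.99% and 2.8%. The median of the members was -0.04 and that of all genes 0.01, and 29 of 45 members were below 0 against 48.4% of all genes. In 3 members, Napb, Nsf and Syt4, every APP vehicle library lay below every aged WT library, as in 2.33% of all genes.

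Rims1 (RIM1, the scaffold that ties vesicles to calcium channels) had the smallest unadjusted p and was the 1 member higher. Its CPM ran from 174 over 200.1 to 276 in APP vehicle and was 193, 147, 146 and 157 in the aged WT libraries. The highest WT value lay inside the APP range. The log2 fold change was 0.40 ± 0.12 (SE) with an edgeR adjusted p of 0.117, and the exact permutation p was 0.0333. With GC and length offsets Rims1 was the 1 member called, at a log2 fold change of 0.44 and an edgeR adjusted p of 0.034 (2.66% of all genes called), as without APP JQ1 replicate 4, with 0.0163 (3.57%). Without offsets and without both APP JQ1 replicate 4 and aged WT replicate 1 it was again the 1 called, with an edgeR adjusted p of 0.0424 (2.32%). Leaving out APP vehicle replicate 2, the highest library, lowered the log2 fold change to 0.29, with an edgeR adjusted p of 0.189. Over the fits without offsets that leave out 1 library, the edgeR adjusted p of Rims1 ran from 0.0829 to 0.324. It was under the threshold in 0 of 16.

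Syt1 and Snap25, the calcium sensor and the SNARE partner that carry fast release, were lower in APP vehicle before adjustment. Syt1 ran from 1071 over 1256 to 1425 CPM in APP vehicle and was 1905, 1465, 1376 and 1514 CPM in aged WT. Snap25 ran from 1744 over 2091 to 2388 CPM in APP vehicle and was 2975, 2332, 2376 and 2464 CPM in aged WT. In both genes the groups overlapped and aged WT replicate 1, the library with more CA3 markers, was the highest. The log2 fold changes were -0.32 ± 0.11 for Syt1 and -0.28 ± 0.11 for Snap25 (SE), with edgeR adjusted p of 0.136 and 0.217 and exact permutation p of 0.0143 and 0.0286. Without aged WT replicate 1 they were -0.23 and -0.21, and with GC and length offsets -0.24 and -0.09, with edgeR adjusted p of 0.268 and 0.749. DESeq2 without APP JQ1 replicate 4 called Syt1, with an adjusted p of 0.0353, and Rims1, with 0.0474, where 3.33% of all genes were called.

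Napb and Nsf, the adaptor beta-SNAP and the ATPase of SNARE disassembly, were lower in every APP vehicle library. Napb ran from 516 over 540.2 to 577 CPM in APP vehicle and was 787, 599, 585 and 613 CPM in aged WT. Nsf ran from 1032 over 1095 to 1152 CPM in APP vehicle and was 1348, 1236, 1198 and 1250 CPM in aged WT. The log2 fold changes were -0.23 ± 0.09 for Napb and -0.19 ± 0.08 for Nsf (SE). Aged WT replicate 1 was the highest library for both genes, and without it they were -0.14 and -0.17. With GC and length offsets they were -0.14 and -0.16, with edgeR adjusted p of 0.5001 and 0.391. The edgeR adjusted p was 0.255 for Napb and 0.274 for Nsf, and the exact permutation p of 0.00476 is the smallest that 6 against 4 libraries can give. All 3 disassembly genes and all 4 endocytosis genes (Dnm1, Amph, Synj1, Sh3gl2) had log2 fold changes below 0, with medians of -0.19 and -0.16 and adjusted p of 0.255 or more, while 6 of the 10 active-zone genes were above 0.

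The third comparison set JQ1-treated APP mice against aged WT mice given vehicle, and so carries both genotype and drug; it shares its samples with the others, and its values are given on their own. Here 1 of 45 members passed the adjusted threshold in edgeR, Cplx1, where 2.06% of all genes did. Vamp1 and Cplx1 passed without replicate 4, where 3.84% of all genes did, and in DESeq2, where 2.85% of its larger set of 27729 genes did. At an unadjusted p under 0.05, 1 member was higher and 10 were lower, against 9.64% and 4.46% of all genes; without replicate 4 these were 0 and 11, against 10.3% and 4.79%. Without replicate 4, DESeq2 called Vamp1, Cplx1 and Nsf (3.79% of all genes), and edgeR with GC and length offsets called Vamp1, Cplx1 and Unc13a (4.94%). The median of the members was -0.11 and that of all genes 0.001, with 32 of 45 members and 49.9% of all genes below 0. Without replicate 4 the median was -0.13 and 33 were below 0.

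Cplx1 was 823, 756, 767 and 801 CPM in the aged WT libraries, above every APP JQ1 library, whose highest was 653 CPM; the APP vehicle median of 738 lay between. Means were 609.5 ± 34.4 CPM in APP JQ1 (SD, n = 6), 701 ± 81.6 in APP vehicle (n = 6) and 787 ± 30.9 in aged WT (n = 4). Against aged WT, Cplx1 fell by 0.35 ± 0.09 (SE) on the log2 scale in APP JQ1, with an edgeR adjusted p of 0.0364. In APP vehicle the log2 fold change was -0.15 ± 0.09, with an edgeR adjusted p of 0.436. Without replicate 4 the value was -0.37 with an edgeR adjusted p of 0.0231, and with GC content and length as offsets -0.32 with 0.0348. The same offsets took Cplx1 in APP vehicle against aged WT to -0.27, with an edgeR adjusted p of 0.0866, and APP JQ1 against APP vehicle was not called for Cplx1 in either fit. Over the fits that leave out 1 library, the edgeR adjusted p ran from 0.0223 to 0.13 and was under the threshold in 8 of 16; it was over it without APP JQ1 replicate 1, 2, 3 or 5 and without any 1 aged WT library. Without both APP JQ1 replicate 4 and aged WT replicate 4 it was 0.0525. The exact permutation p of 0.00476 is again the smallest that 6 against 4 libraries can give. In the young mice Cplx1 was 258 ± 30.1 FPKM with JQ1 and 259 ± 18.3 with vehicle (SD, n = 8 each).

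Vamp1, the vesicle SNARE of many interneurons and of subcortical neurons, was 202, 169, 177 and 183 CPM in aged WT and ran from 123 over 139 to 164 CPM in APP JQ1. Every APP JQ1 library was lower than every WT library, and the highest of the 6 was the library labelled replicate 4. The log2 fold change was -0.36 ± 0.10 (SE) with an edgeR adjusted p of 0.079, and it was -0.42 with 0.0275 without replicate 4, below the threshold. Over the fits that leave out 1 library the edgeR adjusted p of Vamp1 ran from 0.0275 to 0.217. The summed interneuron markers given above were likewise lower in every APP JQ1 library but replicate 4 than in aged WT, and their part in the Vamp1 difference was not tested. Vamp1 took 4.27 to 4.82% of Vamp1 and Vamp2 per length in the other 5 APP JQ1 libraries and 5.09 to 6.89% in aged WT, and replicate 4 had 5.67%. Rab3a, the vesicle GTPase, also lay below every WT library, at 404 to 566 CPM against 594 to 636, with a log2 fold change of -0.25 ± 0.10 (SE) and an edgeR adjusted p of 0.248 (-0.26 and 0.232 without replicate 4). Such separation toward lower values was found in 3 of 45 members, against 1.38% of all genes. Without replicate 4 it was found in 4, with Snap25, against 2.22% of all genes.

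Nsf, Syt3 and Rph3a completed the 5 smallest unadjusted p here. Nsf ran from 928 over 1066 to 1212 CPM in APP JQ1, and only the highest of these libraries reached into the WT range. Syt3 was 69.1, 84.0, 81.3 and 89.5 CPM in aged WT, and the first of these lay inside the APP JQ1 range. Rph3a, a Rab3 effector on vesicles, ran from 202 over 246 to 301 CPM in APP JQ1 and was 245, 336, 334 and 333 CPM in aged WT. The log2 fold changes were -0.21 ± 0.08 for Nsf, -0.31 ± 0.11 for Syt3 and -0.31 ± 0.12 for Rph3a (SE), with edgeR adjusted p from 0.195 to 0.201, and exact permutation p of 0.019, 0.0429 and 0.0524. Without replicate 4 they were -0.24, -0.26 and -0.32, with edgeR adjusted p of 0.129, 0.239 and 0.191 and exact permutation p of 0.0238, 0.0476 and 0.0556. All 5 synaptotagmins, the 3 disassembly genes and the 4 endocytosis genes had log2 fold changes below 0, with medians of -0.14, -0.11 and -0.16, and again without replicate 4, with medians of -0.17, -0.16 and -0.21.

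The last question was whether JQ1 altered release genes in young wild-type mice. By limma on log2(FPKM + 0.1), 0 of 45 members passed the adjusted threshold, where 0.00543% of all loci did, and 1 passed at an unadjusted p under 0.05, against 4.65% of loci. The median of the members was 0.01 and that of all loci 0.003, and 19 of 45 were below 0. The standard errors ran from 0.04 to 0.20. Values are on the scale with the pseudocount, which understates changes of low genes.

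Sv2c, the vesicle protein SV2 form with a restricted pattern in the brain, had the smallest unadjusted p. It ran from 3.39 over 4.30 to 6.22 FPKM with JQ1 and from 4.11 over 5.62 to 7.29 FPKM with vehicle. The JQ1 samples were mostly lower and the ranges overlapped. The log2 fold change was -0.34 ± 0.14 (SE) with a limma adjusted p of 0.981 and an exact permutation p of 0.0446, and the Sv2c locus is joined in these files with another gene's name. Vamp1 ran from 50.2 over 54.1 to 58.7 FPKM with JQ1 and from 50.5 over 59.9 to 67.4 with vehicle, a log2 fold change of -0.12 ± 0.06 (SE), with a limma adjusted p of 0.981.

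Synj1 encodes synaptojanin, the lipid phosphatase that uncoats vesicles. Synj1 ran from 99.6 over 107 to 116 FPKM with JQ1 and from 86.8 over 103 to 113 with vehicle. Dnm1 ran from 342 over 371 to 408 FPKM with JQ1 and from 323 over 350 to 396 with vehicle. Slc17a7 ran from 297 over 373 to 413 FPKM with JQ1 and from 305 over 346 to 372 with vehicle. All 3 leaned higher with overlapping ranges, at log2 fold changes of 0.09 ± 0.05, 0.07 ± 0.05 and 0.08 ± 0.06 (SE), with a limma adjusted p of 0.981 each. The members highest and lowest in level also overlapped between the drug groups: Snap25 ran from 924 over 1053 to 1120 FPKM with JQ1 and from 951 over 1064 to 1164 with vehicle, and Slc17a8 from 0.510 over 0.870 to 1.29 and from 0.724 over 0.838 to 1.14. Effects of JQ1 in the 2 cohorts were not compared by a test, because the files differ in unit and the mice in age, genotype and days of treatment.

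Of 94 other genes of docking, release and recycling, 92 were found in the count files and 91 were tested. The list was made with earlier results of these data known, so its calls are a description. In JQ1-treated against vehicle-treated APP mice, 1 was called higher and 1 lower in edgeR, where 1.08% of all genes were called. Stxbp5l, tomosyn-2 and the closest relative of the member Stxbp5, ran from 33.0 to 50.4 CPM in the 6 APP JQ1 libraries, with 48.6 in replicate 4, and from 5.73 to 21.1 CPM in APP vehicle. No library of the 2 groups overlapped, and the aged WT libraries had 12.4 to 19.6 CPM. Stxbp5l rose by 1.90 ± 0.27 (SE) on the log2 scale, with an edgeR adjusted p of 0.0032, and by 1.86 with 0.00991 without replicate 4. Against aged WT it rose by 1.53 ± 0.30, with an edgeR adjusted p of 0.0172, and by 1.48 with 0.0136 without replicate 4. In young mice Stxbp5l was 24.8 ± 3.09 FPKM with JQ1 and 25.2 ± 4.32 with vehicle (SD, n = 8 each), with a log2 fold change of -0.01 ± 0.10 and a limma adjusted p of 0.998.

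Nrxn2, the presynaptic adhesion protein neurexin-2, was called lower with JQ1 in APP mice. It had 171 to 233 CPM in APP JQ1 and 247 to 286 in APP vehicle, and the 4 aged WT libraries, at 191 to 243 CPM, overlapped the APP JQ1 range. Nrxn2 fell by 0.40 ± 0.08 (SE) on the log2 scale, with an edgeR adjusted p of 0.0181; without replicate 4 the value was -0.38 with 0.0565, over the threshold. Its exons hold 62.4% GC. DESeq2 called 5 of the listed genes in this comparison, 2 higher and 3 lower, where 2.7% of all genes were called, and without replicate 4 it called 2, where 1.43% were. In APP vehicle against aged WT 2 of the 91 were called, where 2.57% of all genes were. Unc13d, a Munc13 relative used for granule release in blood cells, rose from 1.55 ± 0.303 (SD, n = 4) to 3.50 ± 0.938 CPM (n = 6), a log2 fold change of 1.18 with an edgeR adjusted p of 0.0266. Slc17a9, the vesicular nucleotide transporter, rose from 0.468 ± 0.223 to 1.85 ± 1.14 CPM, a log2 fold change of 1.97 with an edgeR adjusted p of 0.0387. Both are low in count, and the microglial marker sum was higher in every APP vehicle library (353 to 492 CPM) than in every aged WT library (198 to 229 CPM); its part in these differences was not tested. In young mice 0 of the 91 listed genes tested passed the threshold in limma, where 0.00543% of all loci did.

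Several members share reads or names with neighbours. Of the 45, 15 have an exon that overlaps an exon of another annotated gene, among them Syn3 with Timp3, Syn2 with Timp4 and Unc13a with Colgalt1, each on the opposite strand, and whether the counting used strand is not given in the sources used here. Cplx1, Vamp1, Syt3, Stxbp5, Rims1, Syt1, Napb and Nsf had no such overlap. In the FPKM files 3 members (Sv2c, Unc13b and Pclo) sit in a locus that carries a second name, and Syt7 has 2 loci, of which the higher was used.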

How the data were processed

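Deposited files were read for 16 aged and 16 young samples; aged WT vehicle replicate 2 was not analysed here. For the aged cohort the authors deposited raw counts per gene, made with STAR on mm10 (at most 2 mismatches) and HTSeq; reads assigned to no gene, 15.4 to 26.9% of unique reads, stayed out. For the young cohort the authors deposited FPKM per locus from Cufflinks and Cuffdiff, behind which the depth is unknown. The submitters' processing notes also name CASAVA 1.8.2 and TopHat.

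Counts were fitted with edgeR 4.0.16 (TMM, filterByExpr, robust quasi-likelihood, the 3 aged groups in 1 fit) and FPKM with limma 3.58.1 (trend, robust) on log2(FPKM + 0.1) for loci of at least 0.5 FPKM in at least 8 of 16 samples, with Benjamini-Hochberg adjustment over all genes or loci. Exact permutation tests of mean log2 values are two-sided. Gene models, lengths and GC content came from GENCODE M21 (GRCm38, as mm10), with GC content from the longest transcript of each gene. Scripts were tested on simulated data. Alternatives were DESeq2 1.42.0, RLE factors, other filters and pseudocounts, GC and length offsets, a replicate block and leaving out libraries.

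Named were members with an adjusted p under 0.05, the 5 smallest unadjusted p per comparison, the 3 highest and 3 lowest levels in young vehicle mice, and listed genes called. Other members named with values (Bsn, Pclo, Syn3 and Unc13c for JQ1, Rab3a, Rab3b, Unc13b, Cplx2, Syt4, Syt11 and Slc17a6) were chosen after their values were seen. Members and lists were chosen with earlier results of these data known.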

Additional observations from a re-analysis of the deposited data

Results flagged for a closer look

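In 8 of 100 groups of values of the 20 named members, 1 sample lay far from the rest of its group by Dixon's criterion, which chance meets in about 1 of 20 groups. Of the 8, 3 fell in aged WT replicate 1, the library with more CA3 and fewer dentate markers: Napb was high there at 787 CPM (next 613), Rph3a low at 245 CPM (next 333) and Syn3 low at 6.76 CPM (next 10.7). In the APP libraries, Cplx3 was 24.0 CPM in APP JQ1 replicate 6 (next 10.5) and Slc17a7 1684 CPM in APP vehicle replicate 1 (next 1291). In the young mice, Cplx3 was 8.17 FPKM in vehicle replicate 5 (next 4.99), Napb 172.5 FPKM in JQ1 replicate 3 (next 157) and Slc17a8 1.14 FPKM in vehicle replicate 4 (next 0.918).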

How the results depend on the processing

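In JQ1 against vehicle in APP mice, 0 of 45 members were called in every alternative run, while calls over all genes, 184 in the fit as reported, were 749 with DESeq2, 43 with GC and length offsets (36 higher and 7 lower, against 105 and 79 as reported), and 65 (without APP JQ1 replicate 2) to 446 (without aged WT replicate 1) when 1 library was left out. After seeing the data, fits without the library labelled APP JQ1 replicate 4 were added: 394 genes with DESeq2, 36 with GC and length offsets (where Stxbp5 turned to -0.0006589), and 57 when aged WT replicate 4 was left out too. In APP vehicle against aged WT (436 genes, 0 members), calls over all genes were 792 with DESeq2 (687 higher and 105 lower, against 422 and 14 as reported), 679 with the 2 groups alone and 154 (without aged WT replicate 1) to 601 (without APP JQ1 replicate 4) with 1 library left out. DESeq2 on the 15 libraries gave 916 genes and 2 members, and 1 member was called with GC and length offsets on 16 or on 15 libraries, and without APP JQ1 replicate 4 and aged WT replicate 1. In APP JQ1 against aged WT (349 genes, 1 member), calls were 790 genes and 2 members with DESeq2, 1042 and 3 with DESeq2 on 15 libraries, 837 and 3 with offsets on 15 libraries, 227 genes with the 2 groups alone, and 11 (without aged WT replicate 5) to 651 genes (without APP JQ1 replicate 4) and 0 to 2 members with 1 library left out. No low-count filter left 0 members, with an edgeR adjusted p of 0.0761 for Cplx1. Leaving out APP JQ1 replicate 4 with aged WT replicate 1 gave 569 genes and 0 members, and with aged WT replicate 4 also 0 members. In young mice 1 locus was called as reported, 0 without the low-value filter and 0 to 2 with 1 sample left out, and 0 members in every alternative. The cause of these shifts was not tested.

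The labels do not say whether samples with the same replicate number share more than the number, and this was not tested. Deviations of same-numbered samples correlated over 0.1 in 3 of 6, 0 of 4, 1 of 4 and 1 of 8 pairs in the 4 comparisons, in the order of the preceding paragraph. In the same order, 5 of 12, 1 of 8, 2 of 8 and 4 of 16 samples correlated best with their own number. The mean r of same-numbered pairs was 0.131, -0.0459, -0.184 and 0.0264, against -0.0222, 0.0164, 0.0461 and -0.00374 in other pairs. With the replicate number as a block, 87, 35, 21 and 0 genes or loci were called, with GC and length offsets as well 36, 70 and 61 genes in the aged comparisons, and 0 members in each; Cplx1 had an edgeR adjusted p of 0.131. Of the values of single named members, 1 changed sign, 11 newly passed the threshold, 13 no longer did and 510 did neither. Counts of 52 reads for the lowest member and an unknown depth in young mice limit the low genes.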
